A study of Mus musculus with 16 samples.

Results

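A set of 10 genes that mark the muscular wall of blood vessels and the pericytes around capillaries were followed in epididymal white adipose tissue (eWAT) of db/db mice. The 10 genes were taken by symbol from a table of 55573 genes and are Acta2, Myh11, Tagln, Cnn1, Smtn and Des for smooth muscle, and Rgs5, Abcc9, Kcnj8 and Notch3 for pericytes. All 10 were found and all 10 were among the 20822 genes that passed the filter on low counts. The tissue came from 16 male C57BLKS/J-db/db mice on chow, obese and diabetic through loss of the leptin receptor, so control and treated animals carried the same genotype. Of these, 8 had received AAV8-eGFP, an adeno-associated virus that makes green fluorescent protein, and 8 had received AAV8-LRG1-FL, which makes FLAG-tagged leucine-rich alpha-2 glycoprotein 1 (LRG1), a secreted protein. From each treatment, 4 mice were taken at 7 weeks and 4 other mice at 10 weeks of age. Both vectors used the CB7 promoter, which is active in most cell types and so does not restrict expression to adipocytes or to vessels. According to the authors, AAV8 favours liver and adipose tissue, and in db/db mice Lrg1 was overexpressed mainly in adipose tissues. The vector was assigned by whole cage and the labels name no cage, so cage and treatment cannot be told apart, and p-values measure the spread between these 16 libraries.

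Arteries and veins are wrapped in smooth muscle, which contracts by sliding smooth muscle actin (Acta2) along smooth muscle myosin (Myh11), while capillaries carry scattered pericytes. Both cell types are called mural cells. Contractile genes depend on serum response factor and its partner myocardin, and signals through the receptor Notch3, set off by ligands on the endothelium, keep mural cells mature. In adipose tissue the same vessels supply growing adipocytes and let leukocytes enter.

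Library totals ran from 45376227 to 67539937 counts, which put 15 to 46 reads per library on Cnn1, the rarest of the 10, 1643 to 17721 on Acta2 and 2057 to 23711 on Rgs5. Lrg1 was above every eGFP library in every LRG1 library, at 286 to 624 against 86.2 to 115 CPM (counts scaled by library total after TMM adjustment), with vector and mouse transcripts counted together. Markers of leukocytes (10 genes, none at 0) summed to 440 to 645 CPM in the LRG1 libraries and 772 to 2373 CPM in the eGFP libraries. The tissue label was met by the 10 adipocyte markers, which summed to 8862 to 21826 CPM, whereas 12 markers of the adjoining epididymis summed to at most 1.93 CPM and 1 of them, Spint4, was at 0 throughout. Replicates 1 and 3 of the eGFP group at week 10 stood apart from replicates 2 and 4. Their leukocyte sums were 2237 and 2373 CPM against 772 and 1012 CPM, and their adipocyte sums 8862 and 10653 CPM against 19056 and 18276 CPM. Week 10 values of the 10 genes are therefore also given without these 2 libraries.

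Per kilobase of gene length, the scale on which levels of different genes can be compared, Acta2 and Rgs5 led in all 4 groups. In the eGFP group at week 7, Acta2 stood at 83.9 ± 4.22 CPM per kb (SD, n = 4) and Rgs5, a brake on G protein signals and a classical pericyte marker, at 22.3 ± 3.89. Des followed at 4.65 ± 0.404, and Abcc9, Smtn, Kcnj8 and Myh11 lay between 3.49 and 2.70, where neighbours overlapped. Notch3 (1.75 ± 0.388) and Tagln (1.21 ± 0.407) overlapped too, and Cnn1 was last at 0.164 ± 0.0407. The last 3 places were the same in every group. The group ranges of Acta2 and Rgs5 did not overlap in either group at week 7, but did in both groups at week 10, where Acta2 was at 44.7 ± 28.7 and Rgs5 at 24.3 ± 14.96 CPM per kb in the eGFP mice. Within each library Acta2 was still the higher per kb. Rgs5 had at most 159 counts per 100 of Acta2, over a gene length of 4546 against 2196 bases. Tagln and Cnn1, an actin-bundling and an actin-binding protein of differentiated smooth muscle, were thus far below Acta2 in this tissue. Counts of Tagln carry a limit of their own, since 62.4% of its exon bases are shared with the antisense gene Gm48529 and 5.43% with Pcsk7 on the other strand. The setting for strand is not given in the sources used here.

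**Figure D1:**
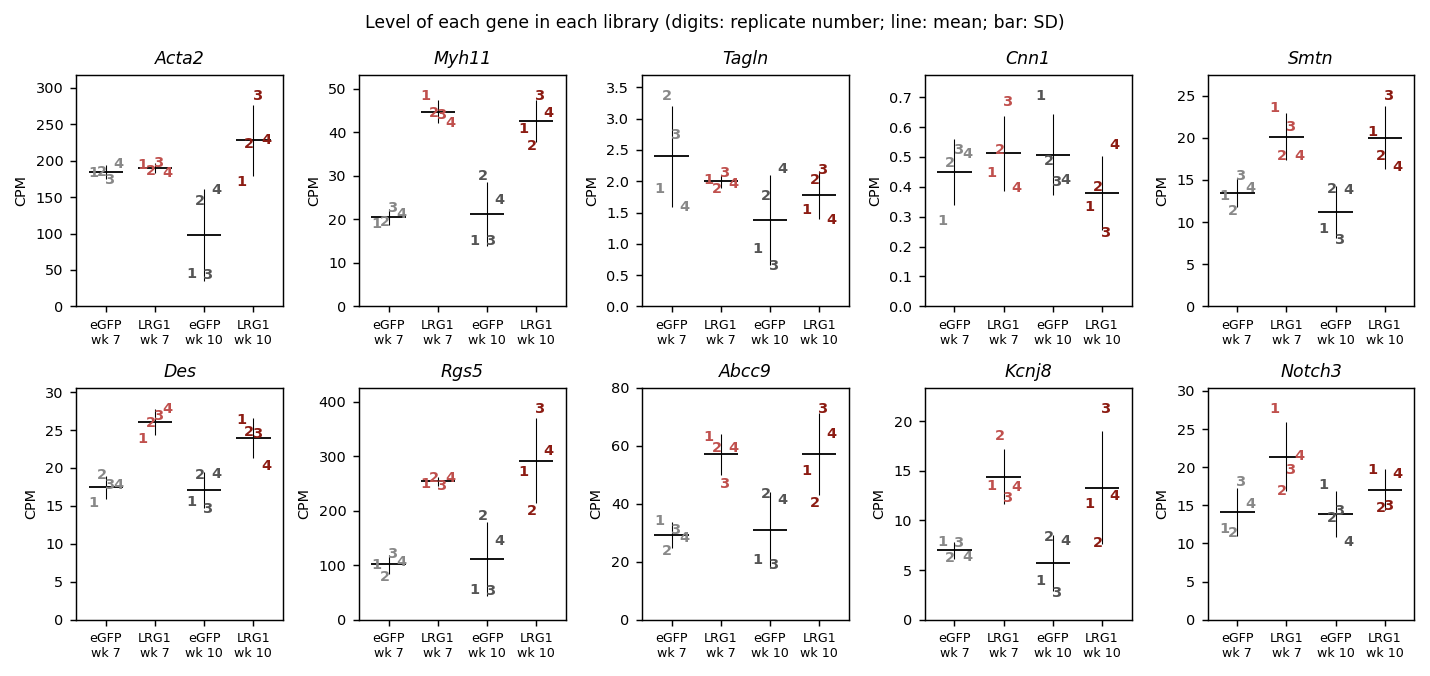
CPM of each of the 10 genes in each of the 16 libraries, on linear axes that start at 0, with each digit giving the replicate number of a mouse, the horizontal line the group mean and the vertical bar the SD (n = 4). Myh11, Smtn, Des and Rgs5 lie higher in every LRG1 library than in every eGFP library of the same week, and replicates 1 and 3 of the eGFP group at week 10 lie low in 8 of the 10 panels.

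The contractile genes did not move as a block. At week 7, myosin was 2.18 times as high in the LRG1 mice, while smooth muscle actin overlapped between the groups. Myh11 read 18.9, 19.3, 22.6 and 21.3 CPM in the eGFP mice and 48.4, 44.4, 43.9 and 42.1 CPM in the LRG1 mice at week 7. The groups were far apart, with a log2 fold change of 1.12 (SE 0.18, adjusted p = 2.5e-04 by edgeR's quasi-likelihood test). At week 10 Myh11 read 15.1, 30.05, 15.1 and 24.4 CPM in the eGFP mice and 40.7, 36.9, 48.2 and 44.5 CPM in the LRG1 mice. Again no eGFP mouse reached the lowest LRG1 mouse, and the log2 fold change was 1.01 (SE 0.18, adjusted p = 0.0020). Without eGFP replicates 1 and 3 it was 0.65 (SE 0.11, adjusted p = 0.0079). CPM is relative to the other counts of a library. In bulk tissue, more mural cells, more transcript per mural cell and fewer counts from other cells therefore cannot be told apart. This holds for this gene and any other here.

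Acta2, which is also made by myofibroblasts, read 183, 185, 173 and 196 CPM in the eGFP mice and 194, 186, 196 and 183 CPM in the LRG1 mice at week 7. These groups overlapped almost completely, and the log2 fold change of 0.04 had a 95% interval of -0.65 to 0.74. Scaled by library totals alone the value was -0.11, so no direction can be given. At week 10 Acta2 read 44.6, 145, 42.8 and 160.0 CPM in the eGFP mice and 171, 222, 289 and 229 CPM in the LRG1 mice. The groups did not overlap, but the log2 fold change of 1.22 (SE 0.33) missed the threshold of 0.01 with an adjusted p of 0.017. Without eGFP replicates 1 and 3 it was 0.58 (SE 0.14, adjusted p = 0.028). The difference between the 2 weeks' effects on Acta2 was 1.17 on the log2 scale (SE 0.47, unadjusted p = 0.023, adjusted p = 0.39 by edgeR).

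A ratio within a library does not depend on how libraries are scaled. For every 100 counts of Acta2 the eGFP mice of week 7 had 10.3, 10.4, 13.04 and 10.9 counts of Myh11, and the LRG1 mice 24.9, 23.9, 22.4 and 22.999. Myosin transcript was thus higher relative to actin transcript in each LRG1 mouse of week 7. At week 10 the ratio was 33.8, 20.7, 35.3 and 15.2 in the eGFP mice and 23.7, 16.6, 16.7 and 19.4 in the LRG1 mice, which overlapped. Tagln counts per 100 of Acta2 ran from 0.815 to 1.82 in the eGFP mice and 1.01 to 1.08 in the LRG1 mice of week 7, and from 1.22 to 2.06 against 0.606 to 0.912 at week 10. Relative to actin, Tagln was thus lower in each LRG1 mouse than in each eGFP mouse at week 10, while the ratios overlapped at week 7. Rgs5 counts per 100 of Acta2 were 42.0 to 69.4 in the eGFP mice and 125 to 143 in the LRG1 mice of week 7, and 90.5 to 131 against 90.01 to 159 at week 10, where they overlapped.

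The start sites of these genes were searched for the letters read by 2 regulators of mural cells. Shown are the matches in the 250 bases before the RefSeq start, 30 bases each, from windows of GRCm38.p6 that were matched for 8 of the 10 genes, all but Myh11 and Tagln. Capitals mark the match, and all 4 stretches are on the minus strand, written 5′ to 3′. The CArG box, bound by serum response factor, was searched as CCNNNNNNGG with at least 5 of its 6 middle bases A or T, which reads alike on both strands, and it occurred at 2 places for Acta2 and in none of the other 7 windows. TGGGAA, the core bound by RBPJ, the partner of cleaved Notch receptors, was searched on both strands and was found for Acta2, Smtn and Abcc9.
Acta2, CArG at -84 to -75, chr19:34255438-34255467: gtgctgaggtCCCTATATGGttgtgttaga
Acta2, CArG at -34 to -25, chr19:34255388-34255417: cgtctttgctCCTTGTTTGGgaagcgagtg
Smtn, reverse complement of TGGGAA at -68 to -63, chr11:3539343-3539372: aaaaattgaattTTCCCAatgggaccagag
Abcc9, TGGGAA at -221 to -216, chr6:142702478-142702507: ggtggtcctgaaTGGGAAtggccggagtga
The TGGGAA of Acta2 spans -27 to -22 and overlaps its second CArG box. Both Acta2 stretches and the Smtn stretch lie inside the annotated bounds of their genes, and the Abcc9 stretch lies before the gene. Of all 32851 windows, 8.59% hold at least 1 such CArG box in the same 250 bases, 0.670% hold 2 or more, and 21.6% hold TGGGAA on either strand. These matches describe the sequence only, and no measurement here bears on binding.

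Smtn, a cytoskeletal protein of contractile smooth muscle, read 13.1, 11.3, 15.5 and 14.02 CPM in the eGFP mice and 23.6, 17.9, 21.2 and 17.8 CPM in the LRG1 mice at week 7. No eGFP mouse reached the lowest LRG1 mouse, yet the adjusted p of its log2 fold change of 0.58 (SE 0.18) was 0.020. At week 10 it read 9.23, 13.9, 7.91 and 13.8 CPM against 20.6, 17.9, 25.0 and 16.5 CPM, and the rise of 0.83 (SE 0.18) passed with an adjusted p of 0.0050. Without eGFP replicates 1 and 3 that value was 0.53 and its adjusted p 0.075. Some 16.3% of the exon bases of Smtn are shared with Gm11946 on the opposite strand.

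Des encodes desmin, the intermediate filament of muscle, which pericytes also make. It read 15.4, 19.05, 17.7 and 17.7 CPM in the eGFP mice and 23.8, 26.0, 26.8 and 27.7 CPM in the LRG1 mice at week 7. At week 10 the values were 15.6, 19.1, 14.7 and 19.2 CPM against 26.4, 24.7, 24.4 and 20.2 CPM. No eGFP mouse reached the lowest LRG1 mouse of its week. The log2 fold change at week 7 was 0.58 (SE 0.10) with an adjusted p of 8.0e-04, and that at week 10 was 0.48 (SE 0.10) with an adjusted p of 0.0055. Without eGFP replicates 1 and 3 the week 10 value was 0.32 (adjusted p = 0.10). Skeletal muscle also makes desmin, and its 12 markers, none at 0, summed to 24.6 to 32.3 CPM in the eGFP mice and 25.8 to 34.1 CPM in the LRG1 mice of week 7. At week 10 they summed to 9.47 to 47.7 and 21.5 to 56.9 CPM, with medians of 21.9 and 47.1, most of it from Acta1 (7.14 to 53.8 CPM over the 16 libraries). Their part in the desmin values was not tested. None of the 9 markers tested was called at either week by edgeR, with 1 at an unadjusted p below 0.05 (week 10) and 1 called by DESeq2.

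Tagln ran from 1.60 to 3.37 CPM in the eGFP mice and from 1.87 to 2.13 CPM in the LRG1 mice at week 7, and from 0.651 to 2.19 against 1.39 to 2.17 CPM at week 10. Cnn1 stayed between 0.245 and 0.705 CPM in all 16 libraries. Neither gene passed the test at either week. Without eGFP replicates 1 and 3 the week 10 log2 fold change was -0.15 for Tagln and -0.26 for Cnn1, and neither passed. For Tagln the 95% intervals of the log2 fold change were -0.92 to 0.39 at week 7 and -0.32 to 1.03 at week 10. For Cnn1 they were -0.44 to 0.81 and -1.07 to 0.21. Changes of a size within these bounds remain compatible with the values.

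Among the pericyte genes, Rgs5 showed the largest difference of the 10 at both weeks. It read 101, 77.7, 120.1 and 107 CPM in the eGFP mice and 249.7, 259.7, 246 and 261 CPM in the LRG1 mice at week 7. The lowest treated mouse was above the highest control by a wide margin, and the log2 fold change was 1.32 (SE 0.33, adjusted p = 0.0064). At week 10 Rgs5 read 54.4, 190.0, 53.5 and 145 CPM against 272, 200.1, 387 and 309 CPM, a log2 fold change of 1.40 (SE 0.33, adjusted p = 0.0081). Here replicate 2 of the eGFP group came close to replicate 2 of the LRG1 group, and without eGFP replicates 1 and 3 the value was 0.80 (SE 0.20, adjusted p = 0.037).

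Abcc9 and Kcnj8 encode the regulatory and the pore subunit of the ATP-sensitive potassium channel of mural cells, which opens to relax vessels, and lie close together on the minus strand of chromosome 6, from 142587862 to 142702315 and from 142564837 to 142571614 (GRCm38). At week 7 Abcc9 read 34.0, 23.8, 31.0 and 28.1 CPM in the eGFP mice and 63.1, 59.3, 46.8 and 59.4 CPM in the LRG1 mice, with a log2 fold change of 0.97 (SE 0.25, adjusted p = 0.0074). Kcnj8 read 7.79, 6.18, 7.71 and 6.32 CPM against 13.5, 18.5, 12.2 and 13.4 CPM, and its log2 fold change of 1.04 (SE 0.32) missed the threshold with an adjusted p of 0.020. Both genes were thus about 2-fold higher in the LRG1 mice of week 7 with no overlap, and only Abcc9 was called. At week 10 Abcc9 read 20.5, 43.3, 18.8 and 41.3 CPM against 51.5, 40.3, 72.8 and 64.0 CPM, and Kcnj8 read 3.92, 8.38, 2.68 and 7.89 CPM against 11.7, 7.77, 21.2 and 12.5 CPM. Replicate 2 of the LRG1 group overlapped the controls for both genes, and neither log2 fold change, 0.88 (SE 0.25, adjusted p = 0.019) for Abcc9 and 1.21 (SE 0.32, adjusted p = 0.014) for Kcnj8, was called. Without eGFP replicates 1 and 3 these were 0.43 (adjusted p = 0.22) and 0.71 (adjusted p = 0.17). Counts of Kcnj8 per 100 of Abcc9 ran from 14.3 to 31.3 over the 16 libraries. In the eGFP mice they were 22.5 to 26.0 at week 7 and 14.3 to 19.3 at week 10, which did not overlap. In the LRG1 mice they were 21.4 to 31.3 and 19.3 to 29.2, which did, and the treatments overlapped at both weeks. The other genes for this channel, which pair in pancreatic beta cells, were nearly absent: Kcnj11 had 0 counts in all 16 libraries, which allows up to 0.0424 to 0.0781 CPM per library (3 counts, counting error only), and Abcc8 had 59 counts in all.

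Notch3, the receptor on mural cells, read 11.9, 11.4, 18.1 and 15.2 CPM in the eGFP mice and 27.6, 16.9, 19.6 and 21.5 CPM in the LRG1 mice at week 7. The groups overlapped through eGFP replicate 3, and the log2 fold change of 0.60 (SE 0.19) had an adjusted p of 0.024. At week 10 it read 17.6, 13.4, 14.2 and 10.2 CPM against 19.6, 14.6, 14.9 and 19.2 CPM, with a log2 fold change of 0.30 (SE 0.19, adjusted p = 0.26), and 0.53 (adjusted p = 0.18) without eGFP replicates 1 and 3. Notch3 therefore passed at neither week.

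Counted together, 4 of the 10 genes (Myh11, Des, Rgs5 and Abcc9) were higher in LRG1 mice at week 7 at an adjusted p below 0.01, where 7.37% of all tested genes were called higher, and 4 (Myh11, Smtn, Des and Rgs5) at week 10, where 3.66% were. No member was called lower at either week by edgeR, where 10.7% and 5.24% of all genes were. At week 7 all 4 LRG1 libraries lay above all 4 eGFP libraries for 6 of the 10 (18.6% of all genes), and at week 10 for 5 of the 10 (9.96%). No member lay the other way round (19.4% and 10.1% of all genes). The median log2 fold change over the 10 was 0.59 at week 7 and 0.86 at week 10, beside 0.0059 and -0.0047 over all genes tested. For the mean of both weeks, 6 of the 10 were called higher (14.4% of all genes, with 16.5% called lower), with log2 fold changes of 1.36 (SE 0.23) for Rgs5, 1.13 (SE 0.22) for Kcnj8, 1.07 (SE 0.12) for Myh11, 0.92 (SE 0.17) for Abcc9, 0.71 (SE 0.13) for Smtn and 0.53 (SE 0.07) for Des. Notch3 (0.45, adjusted p = 0.012) and Acta2 (0.63, adjusted p = 0.037) were not called.

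These counts depend on single mice, on the libraries fitted together and on the scaling. When each of the 8 week 7 libraries was left out in turn, 2 of the 4 calls were left each time, Myh11 and Des. Over all genes these fits called 705 to 1128 higher, against 1534 with all libraries. At week 10, leaving out eGFP replicate 1 or 3, both of these, or LRG1 replicate 1 or 3 left 1 call, Myh11, while leaving out LRG1 replicate 4 left 2 and leaving out eGFP replicate 2 or 4 gave 7. Genes called higher over all genes numbered 87 to 289 in the fits with 1 call and 159 in that with 2. They numbered 1601 and 1206 in those with 7, against 762 with all libraries. A fit of the 8 week 10 libraries alone called none of the 10, with an adjusted p of 0.041 for Myh11. That fit called only 2 of 19128 genes higher and 10 lower, so a count of 0 there says little about the 10. With library totals alone as the scale, 1 of the 10 was called at each week, and 8.57% of all calls at week 7, 22% at week 10 and 24.9% for the mean were for higher genes, against 40.9%, 41.1% and 46.7% with TMM. The mean of both weeks kept the same 6 genes in each of these settings in which it was fitted. It needs all 4 groups, so the fit of the 8 week 10 libraries alone has no value for it.

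**Figure D2:**
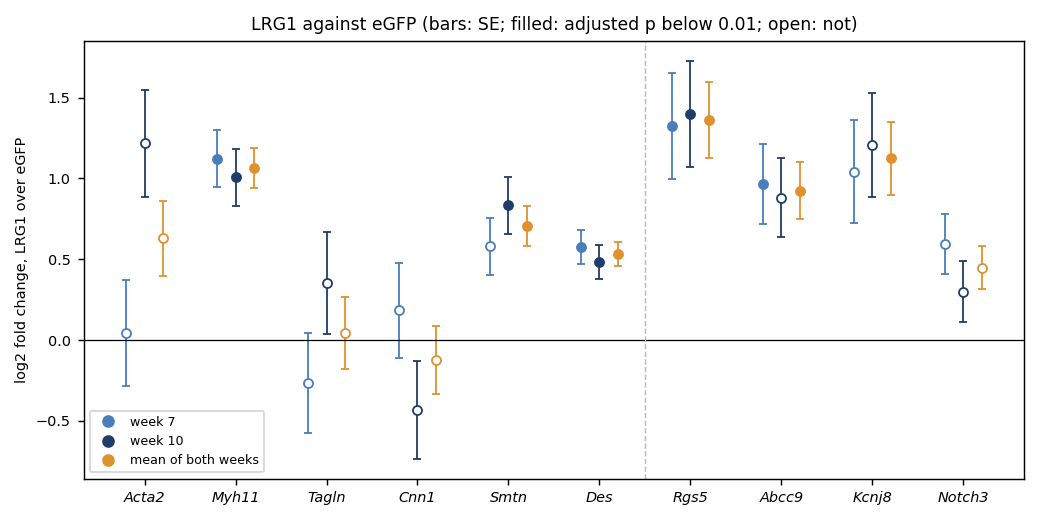
Log2 fold change of LRG1 over eGFP for each of the 10 genes at week 7, at week 10 and as the mean of both weeks, from 1 edgeR fit of 16 libraries, with bars for 1 SE and filled points for an adjusted p below 0.01. Myh11, Des and Rgs5 are filled in all 3 comparisons, and Tagln and Cnn1 lie on both sides of 0. Acta2 is open at 0.04 at week 7 and at 1.22 at week 10, a difference that was not called. Without eGFP replicates 1 and 3 its week 10 value was 0.58.

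No member was called for a difference between the effects at the 2 weeks, where 0.307% of all genes were called for a larger and 0.0192% for a smaller effect at week 10. Acta2 was the single member at an unadjusted p below 0.05, and DESeq2 and limma-voom called 0 as well. From week 7 to week 10 the eGFP mice showed no call among the 10 (0.629% of all genes were called higher and 1.51% lower), with 2 at an unadjusted p below 0.05, Acta2 (-0.91, SE 0.33, adjusted p = 0.13) and Tagln (-0.78, SE 0.31, adjusted p = 0.17). Acta2 was the 1 member of the 10 with all 4 eGFP mice of week 10 below all 4 of week 7 (6.89% of all genes), and none lay the other way round (4.08%). With library totals alone as the scale, 16% rather than 29.4% of all calls in this comparison were for higher genes, and the median of all genes was -0.12. In the LRG1 mice no member was called (0.0048% of all genes in each direction) or had an unadjusted p below 0.05, and all 10 overlapped (3.64% of all genes did not and were higher, 3.41% lower). DESeq2 and limma-voom called 0 in both of these comparisons too.

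The spread of the eGFP mice at week 10 was shared by most of the 10 genes. Replicates 1 and 3 lay below replicates 2 and 4 for 8 genes, all but Cnn1 and Notch3, and below every eGFP mouse of week 7 for 7. The mean of replicates 1 and 3 was 43.7 CPM against 152 CPM in replicates 2 and 4 for Acta2, 54.0 against 167 CPM for Rgs5, 15.1 against 27.2 CPM for Myh11 and 15.1 against 19.1 CPM for Des. Notch3 went the other way, at 15.9 against 11.8 CPM. In the same order, the endothelial markers summed to 373 and 421 CPM in replicates 1 and 3 and to 773 and 713 CPM in replicates 2 and 4. The part of cell makeup in these values was not tested.

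Among 29 other tested smooth muscle genes, of 30 listed, 7 were higher and 3 lower in LRG1 mice at week 7 and 5 higher and none lower at week 10, with medians of 0.41 and 0.57 on the log2 scale. Of all genes, 7.37% were called higher and 10.7% lower at week 7, and 3.66% and 5.24% at week 10. The 3 of 29 that were lower at week 7 are near that share. Those that rose at both weeks included Npnt, a matrix protein that binds integrin (1.20, SE 0.24, and 1.22, SE 0.25), Adra1a, an adrenergic receptor (0.74 and 0.75), and Casq2, a calcium store protein found in heart and smooth muscle (1.57 and 2.04). Npnt stood at 1.63 to 3.35 CPM in the eGFP mice and 4.59 to 5.31 CPM in the LRG1 mice of week 7, and Casq2 was lower still, at 0.26 to 0.58 and 0.75 to 1.71 CPM. Synm, an intermediate filament protein that joins desmin, rose at week 7 (0.95, SE 0.19, adjusted p = 0.0013). Ramp1, a subunit of the receptor for a vasodilator peptide, fell at week 7 (-0.95, SE 0.18, adjusted p = 9.0e-04). Cardiac muscle also makes Casq2, and of 6 cardiac markers, summed to 1.74 to 6.67 CPM, 3 were tested: Tnni3 was lower at week 7 (-1.78) and Ryr2 higher at week 10 (1.20), both called, while Myl7 was at 0.92 and 0.15, not called. The other actins did not follow Myh11. Actb and Actg1, the actins of all cells, fell at week 7 (both -0.59, adjusted p = 0.0012 and 0.0084) and were at -0.22 and -0.42 at week 10, not called. Actg2 (-0.44 and 0.57) and Acta1 (-0.01 and 0.82) passed at neither week, and Actc1 was too rare to test, with 10 counts in all.

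Of 18 other pericyte genes, 6 were higher and 1 lower at week 7 and 3 higher and 1 lower at week 10, with medians of 0.56 and 0.49. The shares over all genes were 7.37% higher and 10.7% lower at week 7, and 3.66% and 5.24% at week 10. Vtn, an adhesion protein that brain pericytes make, rose by 0.98 (SE 0.13) at week 7 and 0.51 (SE 0.12) at week 10, and Ndufa4l2, a hypoxia-induced mitochondrial protein, by 0.76 (SE 0.12) at week 7 and 0.54 (SE 0.12) at week 10. P2ry14, a receptor for UDP-glucose that leukocytes also carry, fell at both weeks (-1.54, SE 0.16, and -1.05, SE 0.16), from 22.2 to 29.1 CPM in the eGFP mice to 7.92 to 9.64 CPM in the LRG1 mice of week 7.

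Notch signalling beyond Notch3 was covered by 16 genes, of which 3 rose at week 7 (7.37% of all genes did): the ligands Jag1 (0.43, SE 0.10) and Dll4 (1.31, SE 0.33), and the endothelial receptor Notch4 (0.85, SE 0.21). At week 10 edgeR and limma-voom called 0 of the 16 and DESeq2 called 3, with 7 at an unadjusted p below 0.05. The smallest adjusted p-values there were those of Notch4 (0.74, 0.018), Hey1, a Notch target (0.89, 0.025), and Dll4 (1.05, 0.033). Rbpj, which carries the Notch signal to DNA and was chosen for mention after its values were seen, was at -0.39 (adjusted p = 0.010051) and -0.27 (adjusted p = 0.075), not called at either week. It fell for the mean of both weeks (-0.33, SE 0.07, adjusted p = 0.0020). Notch2, named likewise, was at -0.31 and -0.20, not called. Heyl, the target most tied to mural cells, and Pdgfrb, the receptor by which pericytes are drawn to vessels, were chosen for mention after their values were seen. They passed at neither week (0.47 and 0.26 for Heyl, 0.36 and 0.10 for Pdgfrb). Of 15 genes by which endothelium draws and holds mural cells, 5 rose and 3 fell at week 7 and 2 rose and 2 fell at week 10. Among all genes, 7.37% were called higher and 10.7% lower at week 7, and 3.66% and 5.24% at week 10. Pdgfb, the ligand of Pdgfrb, fell at week 7 (-0.73, SE 0.15), and Angpt1, which mural cells send to the endothelial receptor Tek, fell at both weeks (-1.18 and -1.13, SE 0.22 each). S1pr2, a receptor for sphingosine 1-phosphate, fell at both weeks (-1.15 and -1.36, SE 0.25 each), while Epas1, a hypoxia-inducible factor strong in endothelium, rose at both (0.73 and 0.56, SE 0.13 each). S1pr2 was at 32.6 and 36.4 CPM in eGFP replicates 1 and 3 of week 10 and at 13.8 and 14.6 CPM in replicates 2 and 4. These lists overlap: Tek and Tie1 are also endothelial markers, Heyl and Pdgfrb also pericyte genes, and Ednra is both a smooth muscle and a recruitment gene.

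**Figure D3:**
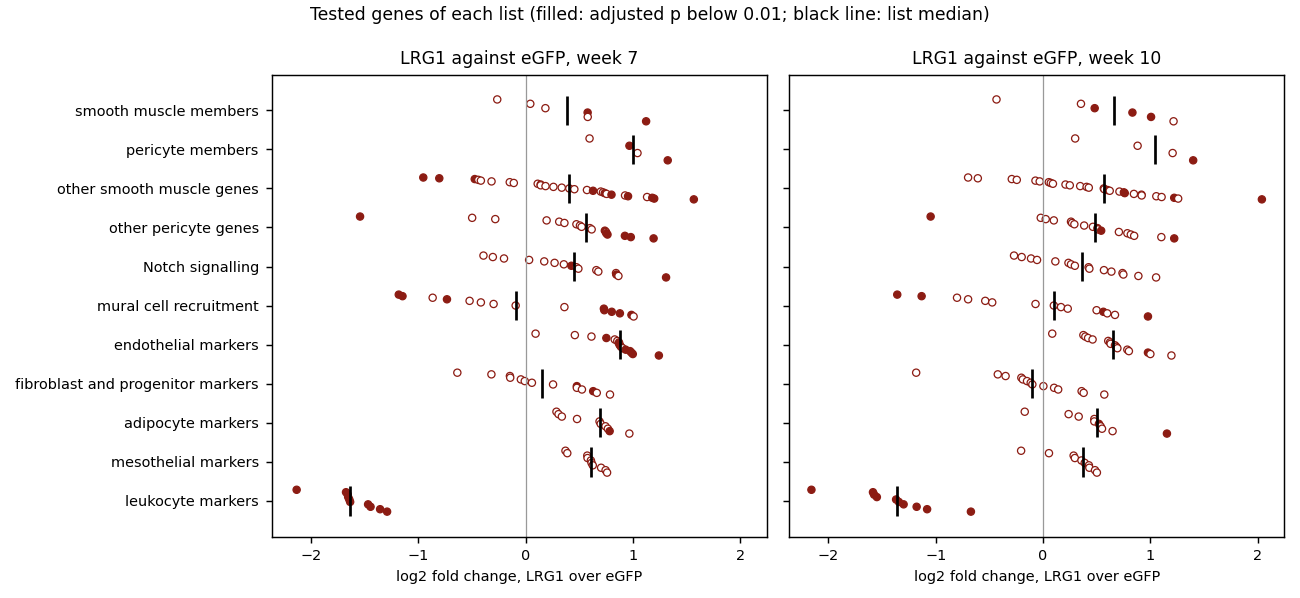
Log2 fold change of LRG1 over eGFP for each tested gene of 11 lists at week 7 and week 10, with filled points for an adjusted p below 0.01 and a black line at the list median. Most mural, endothelial and adipocyte genes lie above 0 at both weeks, all 10 leukocyte markers lie below 0 and are filled, and mural cell recruitment genes lie on both sides.

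Markers of other cell types moved too, but not all in the direction of the mural genes. Over all genes tested, 7.37% were called higher and 10.7% lower at week 7, and 3.66% and 5.24% at week 10. Endothelial markers summed to 429 to 557 CPM in the eGFP mice and 749 to 1007 CPM in the LRG1 mice of week 7, and to 373 to 773 and 761 to 1150 CPM at week 10. Of the 16, none at 0, 10 were higher at week 7 and 1 at week 10, with medians of 0.88 and 0.65. Emcn (log2 fold change 0.87), Tek (0.88) and Esam (0.97) had the smallest adjusted p at week 7, and Tie1 (0.98) was called at week 10. The median of the 4 pericyte genes was 1.01 and 1.04 at the 2 weeks, and that of the 6 smooth muscle genes 0.38 and 0.66. For every 100 counts of Pecam1, an endothelial adhesion protein, there were 92.6 to 143 counts of Rgs5 in the eGFP mice and 133 to 177 in the LRG1 mice of week 7, which overlapped, and 55.7 to 129 against 141 to 196 at week 10, which did not. For Myh11 the counts per 100 of Pecam1 were 17.3 to 27.0 against 23.2 to 31.5 at week 7 and 15.7 to 20.4 against 19.3 to 28.2 at week 10, both overlapping. All 10 leukocyte markers fell at both weeks, with medians of -1.64 and -1.36. The smallest adjusted p belonged to Coro1a (log2 fold change -1.67) and Cd52 (-2.13) at week 7, and to Rac2 (-1.55) and Laptm5 (-1.58) at week 10. Of 10 adipocyte markers, 1 rose at week 7 (Cidec, 0.78) and 2 at week 10 (Pparg, 0.52, and Lep, 1.15), with medians of 0.69 and 0.50. The 1 call of 10 at week 7 is near the share over all genes. Fibroblast markers had medians of 0.16 and -0.11, with Cd55 (0.63) and Dcn (0.48) higher at week 7 and 0 of 14 called at week 10 by edgeR and limma-voom, 2 by DESeq2 and 3 at an unadjusted p below 0.05. The 10 mesothelial markers, from the layer that covers the depot, had medians of 0.61 and 0.37 with none called by any of the 3 tools, 5 having an unadjusted p below 0.05 at week 7 and 0 at week 10. The only epididymis marker that could be tested, Rnase10, was at 0.98 and 0.36 and was called at neither week by any tool, nor was its unadjusted p below 0.05. What part these shifts in other cell types have in the levels of the 10 genes was not tested.

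Within groups, most of the 10 genes rose and fell together from mouse to mouse. After the mean of its group was taken from each log2 CPM value, Pearson's r over the 16 libraries had a median of 0.75 (0.28 to 0.96) for the 28 pairs among the 8 genes other than Cnn1 and Notch3, and Spearman's rho had a median of 0.64. Pairs with Cnn1 or Notch3 (17) had a median r of -0.22. The points share libraries and scaling, and the values are a description with no test. The values were lower without the 4 eGFP mice of week 10: over the other 12 libraries the median over the 28 pairs was 0.37 (-0.54 to 0.85), and r between Acta2 and Myh11 went from 0.89 to 0.45. Pairs of Rgs5 with Myh11 (0.96 and 0.82), Abcc9 (0.94 and 0.85) and Kcnj8 (0.89 and 0.83) held up better over 16 and 12 libraries. Its pairs with Acta2 (0.88 and 0.38), Smtn (0.81 and 0.58), Tagln (0.60 and -0.23) and Des (0.48 and -0.26) fell further. Abcc9 and Kcnj8 stood at 0.92 and 0.83.

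**Figure D4:**
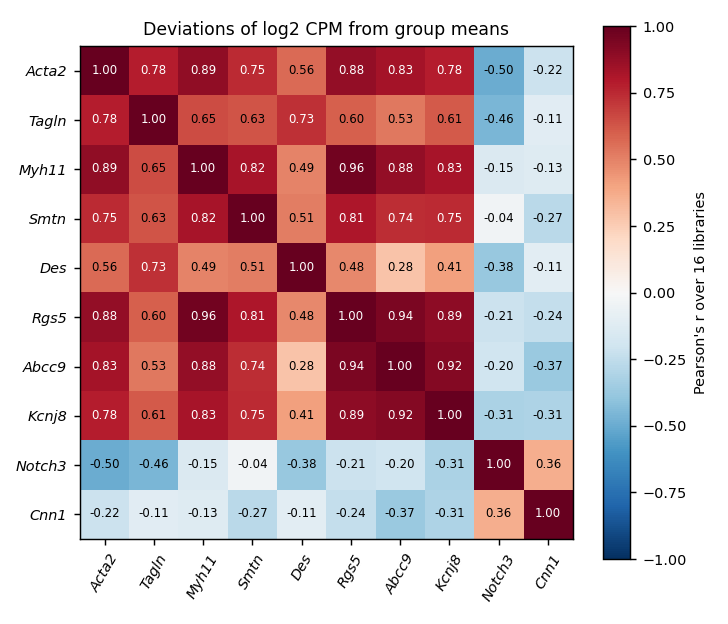
Pearson's r between the 10 genes over 16 libraries, computed on log2 CPM after subtraction of each group's mean, with the colour scale running from -1 to 1. The 8 genes other than Notch3 and Cnn1 form a block of positive values, with the highest value, 0.96, between Myh11 and Rgs5.

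Of 14167 genes at 1 CPM or more on average, those whose deviations were most like the mean of the 6 smooth muscle genes over the 16 libraries were Myo1h (r = 0.97), Lrrc4c (0.97), Sorcs2 (0.97), B430212C06Rik (0.96) and Mogat2 (0.96). For the mean of the 4 pericyte genes they were Gucy1a1 (0.95), which encodes a subunit of the nitric oxide receptor of vascular muscle, Mpp2 (0.95), Fam160a1 (0.94), Fhl5 (0.93) and Afdn (0.93). Gucy1a1 is also in the list of other pericyte genes and was at 0.75 and 0.38 on the log2 scale at weeks 7 and 10. The other 9 ran from 0.75 to 1.44 at week 7 and from 0.35 to 1.16 at week 10. These r values are the highest of a search and include the eGFP mice of week 10. Without those mice the median r among the 8 genes other than Cnn1 and Notch3 went from 0.75 to 0.37. Likeness without them was not computed. The class means include Cnn1 and Notch3, whose pairs had a median r of -0.22.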

How the data were processed

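RNA from whole eWAT of 16 db/db mice was sequenced in 4 groups of 4. Reads were trimmed (Cutadapt), mapped to mm10 (GRCm38; STAR) and summarised over genes (featureCounts) by the authors, whose deposited counts carry no normalization. Versions, strand and multi-mapping settings are not given in the sources used here. After filterByExpr and TMM scaling, 1 quasi-likelihood fit of all 16 libraries (edgeR 4.0.16, R 4.3.3) had a term per group, and a call needed an adjusted p (Benjamini-Hochberg, 20822 genes) below 0.01. Standard errors came from dividing the log2 fold change by the root of its F statistic, and intervals are at 95%. CPM uses TMM-adjusted totals (factors 0.847 to 1.10), and log2 CPM a prior count of 2. Library totals were 45376227 to 67539937. Symbols were matched for 55394 of 55573 genes, with Mkl1 and Mkl2 found as Mrtfa and Mrtfb. Named are the 10 genes, up to 3 genes per list with the smallest adjusted p at each week, the actin isoforms and channel partners in full, and the 5 genes per class most like its mean. A gene that this rule names is not reported here. Genes and lists were chosen with earlier results of these data known. Motifs were searched in RefSeq windows of 250 bases before each start. The procedure was tested on simulated data. Alternatives were DESeq2 1.42.0, limma-voom (limma 3.58.1), other scalings, filters, thresholds and sample sets, and leaving out each library. Omitting eGFP replicates 1 and 3 of week 10 was chosen after seeing the data.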

Additional observations from a re-analysis of the deposited data

How the results depend on the processing

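The count of the 10 genes called higher for the mean of both weeks was 6 to 8 in every alternative that fitted all 4 groups. Fits of only 2 groups have no such mean. Over all genes, 1450 to 4542 were called higher for the mean in these alternatives. At week 7 the count of the 10 was 4, and 7 at an adjusted p below 0.05 or with DESeq2, 1 with library totals alone, and 2 to 2 without each single library. Of all 20822 genes, 1534 were called higher at week 7, 3113 at 0.05, 2400 with DESeq2 and 341 with library totals alone. At week 10 the count of the 10 was 4, and 7 at an adjusted p below 0.05 or with DESeq2, 1 with library totals alone, 0 when only the 2 groups compared were fitted, 1 to 7 without each single library, and 1 without eGFP replicates 1 and 3. Of all genes, 762 were called higher at week 10, 2146 at 0.05, 1587 with DESeq2 and 320 with library totals alone. The fit of the 2 groups called 2 higher, and that without eGFP replicates 1 and 3 called 87. Fitting 8 libraries gave 6 calls among the 10 at week 7, where 2581 of 19719 genes were called higher. With the replicate number as a block the count of the 10 was 2 at week 7, 2 at week 10 and 6 for the mean. The matching counts of higher genes over all 20822 were 1270, 532 and 2862. Deviations of same-numbered libraries correlated at a median of -0.01 (-0.20 to 0.14 over 24 pairs), and the replicate numbers were not taken as pairs. Library totals alone moved the median of all genes by -0.15 at week 7. The sign changed for Acta2 at week 7 with library totals alone (-0.11) and without eGFP replicate 3 (-0.0062; all such fits -0.0062 to 0.074). It also changed for Tagln at week 10 without eGFP replicates 1 and 3 (-0.15), and for Tagln over both weeks without them (-0.21), with library totals alone (-0.056), and in 5 of the fits without 1 library: eGFP replicates 1 (-0.0048) and 4 (-0.031) of week 7, and eGFP replicates 1 (-0.036) and 3 (-0.064) and LRG1 replicate 3 (-0.010) of week 10, over a range of -0.064 to 0.20. The cause was not tested. With 4 mice a group, the intervals of Tagln and Cnn1 span 0 at both weeks.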
